A study of Mus musculus with 2 samples.

Results

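Glypicans and syndecans are families of cell-surface proteoglycans that carry heparan sulphate. All 10 mouse genes of these families were taken by symbol from the 22096 gene symbols of the deposited tables. They are the glypicans *Gpc1* to *Gpc6* and the syndecans *Sdc1* to *Sdc4*. The cells came from mouse forelimbs at E13.5, and the embryos had a mixed strain background. Cells of 6 pooled forelimbs (3 pairs) per sample were sorted on the ScxGFP reporter, in which green fluorescent protein marks cells that use regulatory sequence of *Scx*, the gene of the tendon progenitor factor scleraxis. ScxGFP-positive cells (the positive pool) and ScxGFP-negative cells (the negative pool) gave 1 library each, so no difference here has a replicate check or a test. The reporter, the age, the tissue, the pooling and the strain background were shared by both groups.

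A glypican is tied to the outer face of the membrane by a lipid anchor. A syndecan crosses the membrane and has a short cytoplasmic tail that binds scaffold proteins. Heparan sulphate chains on both kinds of core protein hold FGF, Wnt, hedgehog and BMP ligands at the cell surface and help or hinder their access to receptors. In the developing limb these ligands pattern the mesenchyme and the skeleton, and loss of function of *GPC3* in humans causes an overgrowth syndrome.

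Glypican transcripts were more abundant in ScxGFP-positive cells under every scaling tried, whereas the summed syndecan level lay close to that of ScxGFP-negative cells, on a side that changed with the scaling. Levels are the deposited FPKM, fragments per kilobase of transcript and of the library's mapped fragments, so levels of different genes can be set side by side. The 6 glypicans summed to 157 FPKM in ScxGFP-positive cells and 99.7 FPKM in ScxGFP-negative cells, and the 4 syndecans to 37.0 FPKM in the positive pool and 44.7 FPKM in the negative pool. Summed syndecan FPKM in ScxGFP-positive cells was 82.8% of the sum in ScxGFP-negative cells as deposited and between 101% and 113% after 4 rescalings (to a median ratio of 1, to equal upper quartiles, to equal sums, called TPM, and to equal sums leaving out haemoglobin genes), and the glypican sum was 158% as deposited and between 193% and 215%. Within a library, a ratio that no scaling between libraries can move, glypican FPKM was 4.26 times syndecan FPKM in the positive pool and 2.23 times in the negative pool. Without *Gpc3*, the most abundant member, it was 1.23 times in the positive pool and 0.569 times in the negative pool. In bulk RNA of sorted pools, fewer cells that express a gene and less of its RNA per cell cannot be told apart.

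**Figure D1:**
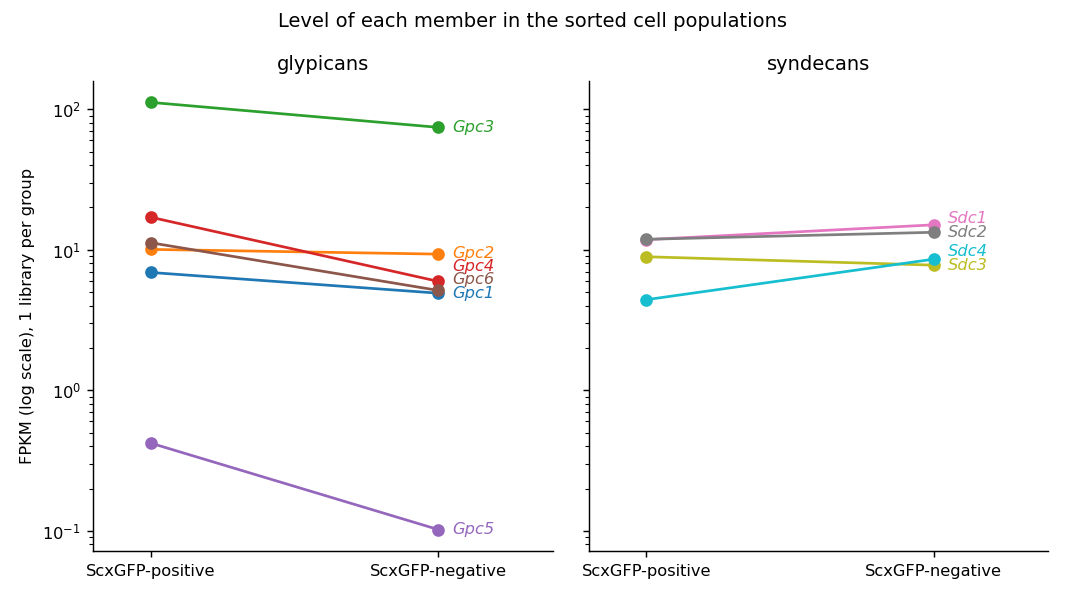
FPKM on a log scale of each glypican (left panel) and each syndecan (right panel) in the ScxGFP-positive and the ScxGFP-negative library, 1 point per library and 1 line per gene. All 6 glypican lines are higher at the positive end, most steeply for *Gpc5*, *Gpc4* and *Gpc6*, whereas *Sdc4* is the steepest syndecan line and is lower at the positive end.

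Differences are given as log2((FPKM + 1) in positive cells / (FPKM + 1) in negative cells), which understates the difference of a gene at a low level. A gene counted as measured with at least 1 FPKM in either library. This left 12096 genes and 9 of the 10 members, all but *Gpc5*. The median log2 ratio of measured genes was −0.27, a shift of 1.20-fold toward the negative library, so each member is also placed relative to that median. Of the 9 measured members 1, *Gpc4*, was at least 2-fold higher in positive cells, beside 4.03% of all measured genes, and 0 were at least 2-fold lower, beside 9.98% of all measured genes. With 1 gene in 9 these counts say little about the families, and their distance from the median of all genes is the clearer description. All 5 measured glypicans had a log2 ratio above 0, as did 1 of the 4 syndecans, beside 26.2% of all measured genes. The median log2 ratio was 0.58 over the 5 glypicans and −0.24 over the 4 syndecans, against −0.27 over all measured genes.

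**Figure D2:**
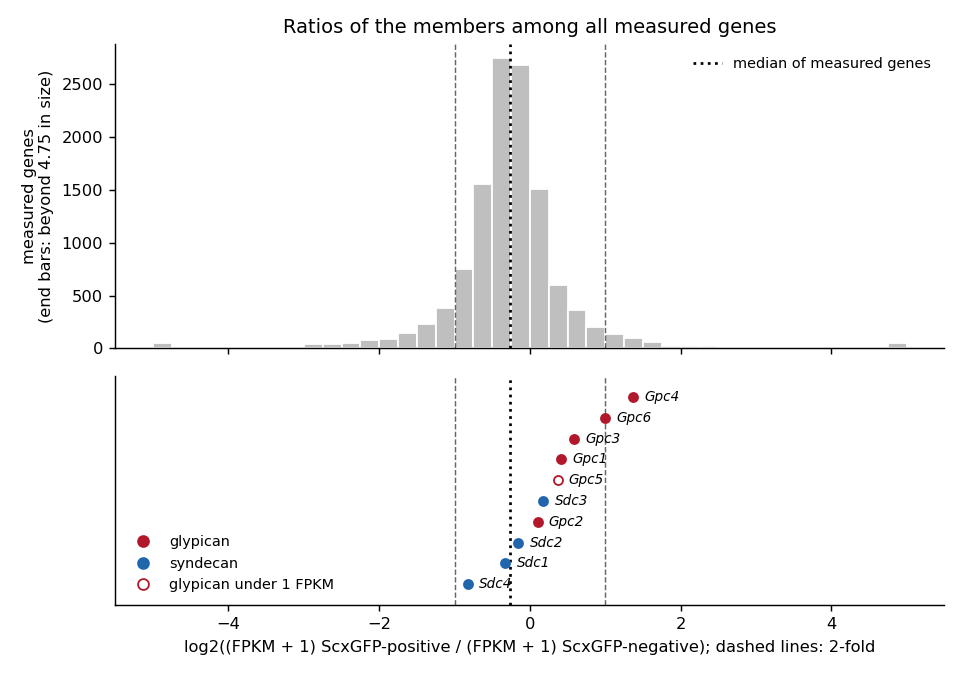
Upper panel, number of measured genes by log2 ratio, with the end bars holding the 49 genes below −4.75 and the 52 genes above 4.75. Lower panel, the log2 ratio of each member on the same axis, with *Gpc5* as an open point because it lay under 1 FPKM in both libraries. The glypicans lie right of the dotted median at −0.27, and *Sdc4* lies left of it.

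Promoters are shown for *Gpc4*, the measured member with the highest ratio, and for its chromosomal neighbour *Gpc3*, the most abundant member. That of *Sdc4*, the member with the lowest ratio, is shown as well. *Gpc6*, whose log2 ratio was larger in size than that of *Sdc4*, had no matched promoter. The stretches are the 250 bases upstream of the RefSeq start, build GRCm38.p6, written 5′ to 3′ in the direction of the gene. Capitals mark the GC box GGGCGG, on either strand (CCGCCC), the motif of Sp-family factors, and would also mark the E-box CANNTG, the motif of basic helix-loop-helix factors such as scleraxis.
Gpc4, chrX:52164924-52165173, minus strand: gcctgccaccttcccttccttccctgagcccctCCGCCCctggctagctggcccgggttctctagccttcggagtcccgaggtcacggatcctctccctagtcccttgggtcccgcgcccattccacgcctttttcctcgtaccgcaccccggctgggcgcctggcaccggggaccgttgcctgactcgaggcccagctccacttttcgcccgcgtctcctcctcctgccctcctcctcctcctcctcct
Gpc3, chrX:52613975-52614224, minus strand: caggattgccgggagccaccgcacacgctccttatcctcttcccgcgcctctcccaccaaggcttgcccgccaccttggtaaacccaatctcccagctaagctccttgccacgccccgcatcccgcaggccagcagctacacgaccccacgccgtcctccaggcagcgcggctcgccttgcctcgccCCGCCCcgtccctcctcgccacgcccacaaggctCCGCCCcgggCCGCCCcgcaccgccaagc
Sdc4, chr2:164443189-164443438, minus strand: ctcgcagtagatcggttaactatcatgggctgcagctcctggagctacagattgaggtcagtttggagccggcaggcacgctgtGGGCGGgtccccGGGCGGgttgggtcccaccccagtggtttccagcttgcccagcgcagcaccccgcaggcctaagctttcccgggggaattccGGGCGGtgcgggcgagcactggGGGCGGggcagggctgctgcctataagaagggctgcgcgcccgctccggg
The GC box occurred 1 time upstream of *Gpc4*, 3 times upstream of *Gpc3* and 4 times upstream of *Sdc4*, and 32.7% of 32841 mouse promoters of the same length held at least 1. The E-box CANNTG was found in 0 of these 3 windows and in 66.2% of all promoters. Among the 7 members matched in the promoter table, *Gpc2* held 1 E-box, with the letters CAGATG, and *Sdc1* held 1, with the letters CAACTG. The match of letters is a description of these windows, and binding was not measured.

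*Gpc4*, which in other systems modulates FGF, BMP and Wnt signalling, had 17.0 FPKM in ScxGFP-positive cells and 5.96 FPKM in ScxGFP-negative cells. Its FPKM in positive cells was 2.86 times that in negative cells. Its log2 ratio of 1.37, or 2.59-fold on the FPKM + 1 scale, lay 1.64 above the median of all genes and held rank 305 from the top among 12096. Under every scaling and pseudocount tried it stayed at least 2-fold higher, with log2 ratios between 1.01 and 1.92. Among the 10 members it was second in level in positive cells and seventh in negative cells. The gene (NM_008150, mm9 chromosome X, 49406195 to 49518100) was the only member past 2-fold in every setting.

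*Gpc6*, whose human counterpart is mutated in a short-limb skeletal disorder, had 11.2 FPKM in the positive pool and 5.14 FPKM in the negative pool. The FPKM ratio was 2.18. On the FPKM + 1 scale the fold was 1.99 and the log2 ratio 0.99, just under the 2-fold mark, and 1.26 above the median of all genes, at rank 491. *Gpc6* (mm9 chromosome 14, 117324537 to 118378751) is listed with 2 transcripts that share 1 locus and differ little in length, 6732 and 6762 bases. The shorter, NM_011821, had 11.2 FPKM in the positive pool and 4.43 FPKM in the negative pool. The longer, NM_001079844, had 0.000138 FPKM in the positive pool and 0.705 FPKM in the negative pool, which is 13.7% of the gene's FPKM in negative cells. The division of reads between transcripts so alike is uncertain, and the sum was used. With the shorter transcript alone the log2 ratio was 1.17.

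*Gpc3*, the glypican that restrains growth and binds hedgehog ligands, had by far the highest level of the members in both libraries. It stood at 112 FPKM in the positive pool and 74.3 FPKM in the negative pool, rank 195 among measured genes in positive cells and rank 329 in negative cells. Its log2 ratio was 0.58, a 1.50-fold difference, and 0.85 above the median of all genes. Rescaling to equal sums (TPM) put it at 1.03, just past 2-fold, and every other setting left it under 2-fold. *Gpc3* (NM_016697, mm9 chromosome X, 49625604 to 49967151) and *Gpc4* are neighbours, separated by 108 kb with 0 other listed genes between them. *Gpc3* exceeded *Gpc4* 6.57 times in the positive pool and 12.5 times in the negative pool. The microRNA gene *Mir717* lies within the *Gpc3* locus over 0.109 kb and was listed at 15.4 FPKM in the positive pool and 29.6 FPKM in the negative pool. Reads over so short a stretch cannot be told apart from other RNA of the *Gpc3* locus.

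*Gpc1*, a widely expressed glypican that acts as a co-receptor for FGF (NM_016696, mm9 chromosome 1, 94728263 to 94756773), had 6.89 FPKM in the positive pool and 4.91 FPKM in the negative pool. Its log2 ratio of 0.42 lay 0.68 above the median of all genes and stayed under 2-fold in all settings. *Gpc2*, known as cerebroglycan and best described in developing neurons (NM_172412, mm9 chromosome 5, 138714888 to 138721165), had 10.1 FPKM in the positive pool and 9.31 FPKM in the negative pool. Its log2 ratio of 0.10 was the smallest among glypicans.

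*Gpc5*, of the same glypican subfamily as *Gpc3* (NM_175500, mm9 chromosome 14, 115491437 to 116924414), was near the limit of what these libraries measured, at 0.421 FPKM in the positive pool and 0.102 FPKM in the negative pool. These values rest on 2.77 kb and 0.704 kb of aligned bases in positive and negative cells, while every other member had at least 24.8 kb. Its FPKM ratio of 4.12 is therefore poorly bounded, and on the FPKM + 1 scale the log2 ratio was 0.37. *Gpc5* and *Gpc6* are neighbours on chromosome 14, 400.1 kb apart with 0 listed genes between them, and *Gpc6* exceeded *Gpc5* 26.7 times in the positive pool and 50.3 times in the negative pool.

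Within the glypicans, *Gpc4* and *Gpc6* took larger shares in positive cells. *Gpc3* made up 71.0% of summed glypican FPKM in the positive pool and 74.5% in the negative pool. *Gpc4* made up 10.8% in the positive pool and 5.97% in the negative pool, and *Gpc6* 7.12% in the positive pool and 5.15% in the negative pool. *Gpc2* made up 6.39% in the positive pool and 9.34% in the negative pool, and *Gpc1* 4.38% in the positive pool and 4.92% in the negative pool. *Gpc4* was 1.69 times as abundant as *Gpc2* in positive cells and 0.640 times as abundant in negative cells. These shares have no interval, since read counts were not recoverable from the FPKM.

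*Sdc4*, the syndecan of focal adhesions, where its tail binds and activates protein kinase C alpha, was the member with the lowest ratio. It had 4.41 FPKM in ScxGFP-positive cells and 8.57 FPKM in ScxGFP-negative cells, so ScxGFP-positive cells held 51.5% of the ScxGFP-negative level. The log2 ratio was −0.82, a value 0.56 below the median of all genes, at rank 1662 from the bottom of 12096. No setting made it 2-fold, and all left it negative, between −0.96 and −0.50. *Sdc4* (NM_011521, mm9 chromosome 2, 164249747 to 164268688) made up 11.9% of summed syndecan FPKM in the positive pool and 19.2% in the negative pool.

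*Sdc1*, the main syndecan of epithelia and plasma cells, also found in condensing mesenchyme (NM_011519, mm9 chromosome 12, 8778202 to 8800493), had 11.8 FPKM in the positive pool and 15.0 FPKM in the negative pool. Its log2 ratio of −0.33 lay 0.059 below the median of all genes. The epidermal markers *Krt5*, *Krt14*, *Krt15*, *Perp*, *Trp63* and *Epcam* summed to 11.3 FPKM in the positive pool and 304 FPKM in the negative pool, with 6 of 6 at least 2-fold lower and 0 listed at 0 in either library. Relative to ScxGFP-negative cells, ScxGFP-positive cells held 3.73% of the summed epidermal level and 78.5% of the *Sdc1* level. Leukocyte and endothelial markers were lower as well, with sums of 7.19 FPKM in positive and 290.0 FPKM in negative cells for 6 leukocyte genes and of 2.60 FPKM in positive and 37.9 FPKM in negative cells for 5 endothelial genes. The part of these cell types in the levels of *Sdc1* and *Sdc4* was not tested.

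*Sdc2*, the syndecan of mesenchymal cells (NM_008304, mm9 chromosome 15, 32850478 to 32964476), had 11.9 FPKM in the positive pool and 13.3 FPKM in the negative pool, a log2 ratio of −0.15 and 0.11 above the median of all genes. *Sdc3*, a syndecan of nerve, cartilage and muscle precursors (NM_011520, mm9 chromosome 4, 130348452 to 130382233), was the only syndecan with a ratio above 0, at 8.92 FPKM in the positive pool and 7.77 FPKM in the negative pool. Its log2 ratio was 0.18, or 0.44 above the median of all genes. The signs of *Sdc1* and *Sdc2* turned with the scaling used. When libraries were scaled to a median ratio of 1, *Sdc2* was at 0.16 and *Sdc1* at −0.012, and with TPM they were at 0.28 and 0.095. Skeletal muscle markers summed to 147 FPKM in the positive pool and 18.6 FPKM in the negative pool, with 6 of 6 at least 2-fold higher. Cartilage markers summed to 90.0 FPKM in the positive pool and 66.8 FPKM in the negative pool, with 0 of 4 measured ones past 2-fold. Their part in the level of *Sdc3* was not tested.

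Within the syndecans, *Sdc3* took a larger share in positive cells and *Sdc4* a smaller one. *Sdc3* made up 24.1% of summed syndecan FPKM in the positive pool and 17.4% in the negative pool. *Sdc2* made up 32.1% in the positive pool and 29.8% in the negative pool, and *Sdc1* 31.9% in the positive pool and 33.7% in the negative pool. *Sdc3* was 2.02 times as abundant as *Sdc4* in positive cells and 0.908 times as abundant in negative cells. *Gpc4* and *Sdc4*, the ends of the range, stood at a ratio of 3.86 in the positive pool and 0.695 in the negative pool, a 5.55-fold difference that does not depend on scaling.

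**Figure D3:**
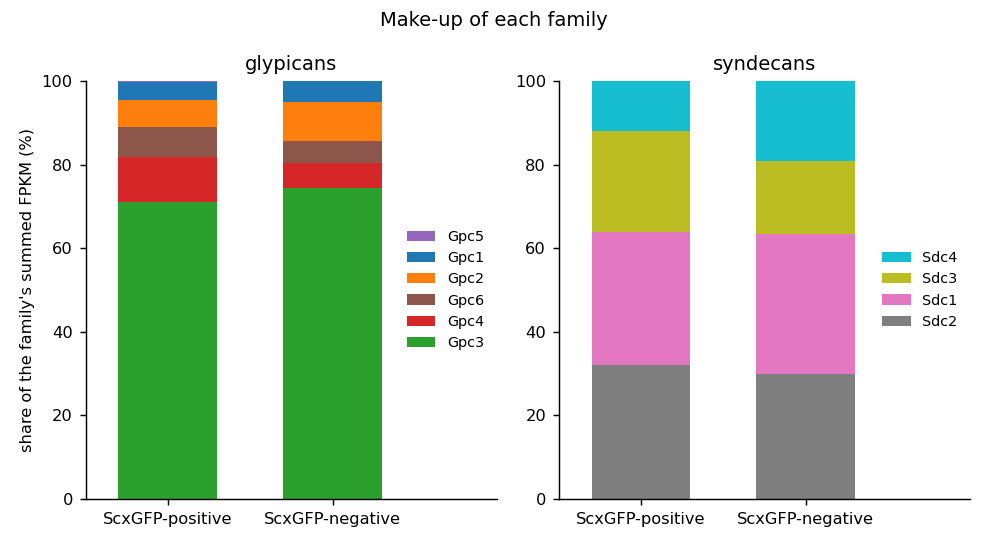
Share of each gene in the summed FPKM of its family, in percent, for the glypicans (left panel) and the syndecans (right panel), with 1 bar per library. *Gpc3* takes 71.0% and 74.5% of the glypican bars in positive and negative cells, and the *Sdc4* segment is 11.9% in positive and 19.2% in negative cells.

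In order of level, the members in positive cells ran *Gpc3*, *Gpc4*, *Sdc2*, *Sdc1*, *Gpc6*, *Gpc2*, *Sdc3*, *Gpc1*, *Sdc4* and *Gpc5*. In negative cells the order was *Gpc3*, *Sdc1*, *Sdc2*, *Gpc2*, *Sdc4*, *Sdc3*, *Gpc4*, *Gpc6*, *Gpc1* and *Gpc5*. *Gpc3* was first and *Gpc5* last in both. Between them, the levels lay within 4.41 to 17.0 FPKM in positive cells and 4.91 to 15.0 FPKM in negative cells, and with 1 library per group no spread is at hand to separate neighbours in the order.

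The other genes of the pathway are described in lists by role, beside 4.03% higher and 9.98% lower by at least 2-fold among all measured genes, so that 0 to 2 genes past 2-fold in a list of about 10 is near that background. Of 11 listed genes that build the linker and the heparan sulphate chain, 9 were measured, and 0 were at least 2-fold higher or lower, with a median log2 ratio of 0.044 beside −0.27 over all measured genes. *Ext1*, a subunit of the chain polymerase, had 19.9 FPKM in the positive pool and 17.1 FPKM in the negative pool. Of 10 measured genes for chain modification 0 were higher and 2 were at least 2-fold lower. *Hs3st1*, which adds the rare 3-O-sulphate of the antithrombin site, had 1.93 FPKM in the positive pool and 10.03 FPKM in the negative pool, a log2 ratio of −1.91. *Ndst2*, an N-deacetylase and N-sulphotransferase needed for mast cell heparin, had 5.16 FPKM in the positive pool and 12.5 FPKM in the negative pool, a log2 ratio of −1.14. *Ndst2* was under 2-fold with each of the 4 rescalings and with a pseudocount of 5. Toward the other side, *Hs6st2*, a 6-O-sulphotransferase named after its values were seen, had 3.45 FPKM in the positive pool and 1.29 FPKM in the negative pool. Its log2 ratio of 0.96 was past 2-fold with each of the 4 rescalings, with a pseudocount of 0.1 and with none. *Hs6st3*, its relative and likewise named afterwards, had 1.18 FPKM in the positive pool and 0.426 FPKM in the negative pool, a log2 ratio of 0.61 that was past 2-fold in 4 of 9 settings. *Hs6st1*, a 6-O-sulphotransferase at a higher level than either in both libraries, went the other way. It had 5.77 FPKM in the positive pool and 8.39 FPKM in the negative pool, a log2 ratio of −0.47. *Hs3st3b1*, a 3-O-sulphotransferase also named afterwards, had a log2 ratio of 0.48 that was past 2-fold with TPM, at 1.04. Its relative *Hs3st3a1* had a log2 ratio of −0.053. *Hs2st1*, the 2-O-sulphotransferase, was at 8.94 FPKM in the positive pool and 12.03 FPKM in the negative pool.

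Both sulphatase genes that trim the chains outside the cell were higher in ScxGFP-positive cells. *Sulf1*, a sulphatase that removes 6-O-sulphate from heparan sulphate at the cell surface, had 37.8 FPKM in the positive pool and 4.69 FPKM in the negative pool, a log2 ratio of 2.77. Its paralogue *Sulf2* had 50.2 FPKM in the positive pool and 18.8 FPKM in the negative pool, a log2 ratio of 1.37. Both stayed past 2-fold in all settings. *Hpse2*, a heparanase relative that binds heparan sulphate without cutting it, had 3.52 FPKM in the positive pool and 0.679 FPKM in the negative pool. Of 12 measured genes for editing and release 4 were at least 2-fold higher and 1 lower, with a median log2 ratio of −0.30.

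Among the proprotein convertases, proteases of the family that cleaves glypican core proteins, members went both ways. *Pcsk5* had 3.83 FPKM in the positive pool and 0.842 FPKM in the negative pool, a log2 ratio of 1.39. *Pcsk6* had 3.60 FPKM in the positive pool and 14.5 FPKM in the negative pool, a log2 ratio of −1.75. *Mmp14*, a membrane metalloprotease that can shed syndecans, was at 33.4 FPKM in the positive pool and 20.2 FPKM in the negative pool. Its log2 ratio was 0.70 as deposited and past 2-fold in 3 of 9 settings, at 1.02 with a median ratio of 1, 1.16 with TPM and 1.08 with TPM leaving out haemoglobin genes. With a pseudocount of 5 *Hpse2* and *Pcsk5*, both at low levels, were under 2-fold, as were *Tgfbr3* and *Cd44* among the other proteoglycans.

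Of 11 measured genes for proteins that bind syndecan tails or link them to actin, 0 were higher and 2 were lower by at least 2-fold; the median log2 ratio was −0.60. *Msn* (moesin), a membrane-actin linker abundant in blood and endothelial cells, had 14.1 FPKM in the positive pool and 62.8 FPKM in the negative pool, a log2 ratio of −2.08. *Ezr* (ezrin), its epithelial relative, had 4.02 FPKM in the positive pool and 13.1 FPKM in the negative pool, a log2 ratio of −1.49. *Actn4*, an actin crosslinker, had 22.0 FPKM in the positive pool and 31.8 FPKM in the negative pool. *Cask*, a scaffold protein, had a log2 ratio of 0.62 as deposited, 1.14 with TPM and 1.06 with TPM leaving out haemoglobin genes. *Tiam1*, an activator of Rac, had −0.60 as deposited and −1.01 with the highest transcript per gene. *Cask* and *Tiam1* were named after their values were seen. The leukocyte, endothelial and epidermal markers given above were lower as well, and their part was not tested.

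Other proteoglycans that carry heparan sulphate, always or at times, had 8 measured members, of which 1 was at least 2-fold higher and 3 lower. *Tgfbr3*, which encodes the TGF-beta co-receptor betaglycan, had 6.88 FPKM in the positive pool and 2.77 FPKM in the negative pool, a log2 ratio of 1.06. *Srgn*, the proteoglycan of blood cell granules, had 0.632 FPKM in the positive pool and 74.1 FPKM in the negative pool. *Col18a1*, a basement membrane collagen, had 1.85 FPKM in the positive pool and 9.41 FPKM in the negative pool, and *Cd44*, the hyaluronan receptor, 2.85 FPKM in the positive pool and 9.28 FPKM in the negative pool. *Agrn*, the gene of agrin, had 12.9 FPKM in the positive pool and 20.6 FPKM in the negative pool. Taking the 5 lists as 1 set of 50 measured genes, 5 were higher and 8 lower by at least 2-fold, beside 4.03% higher and 9.98% lower among all measured genes. The list medians for chain synthesis, chain modification and editing turned sign in at least 1 setting, and those of the tail partners and of the other proteoglycans stayed negative.

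**Figure D4:**
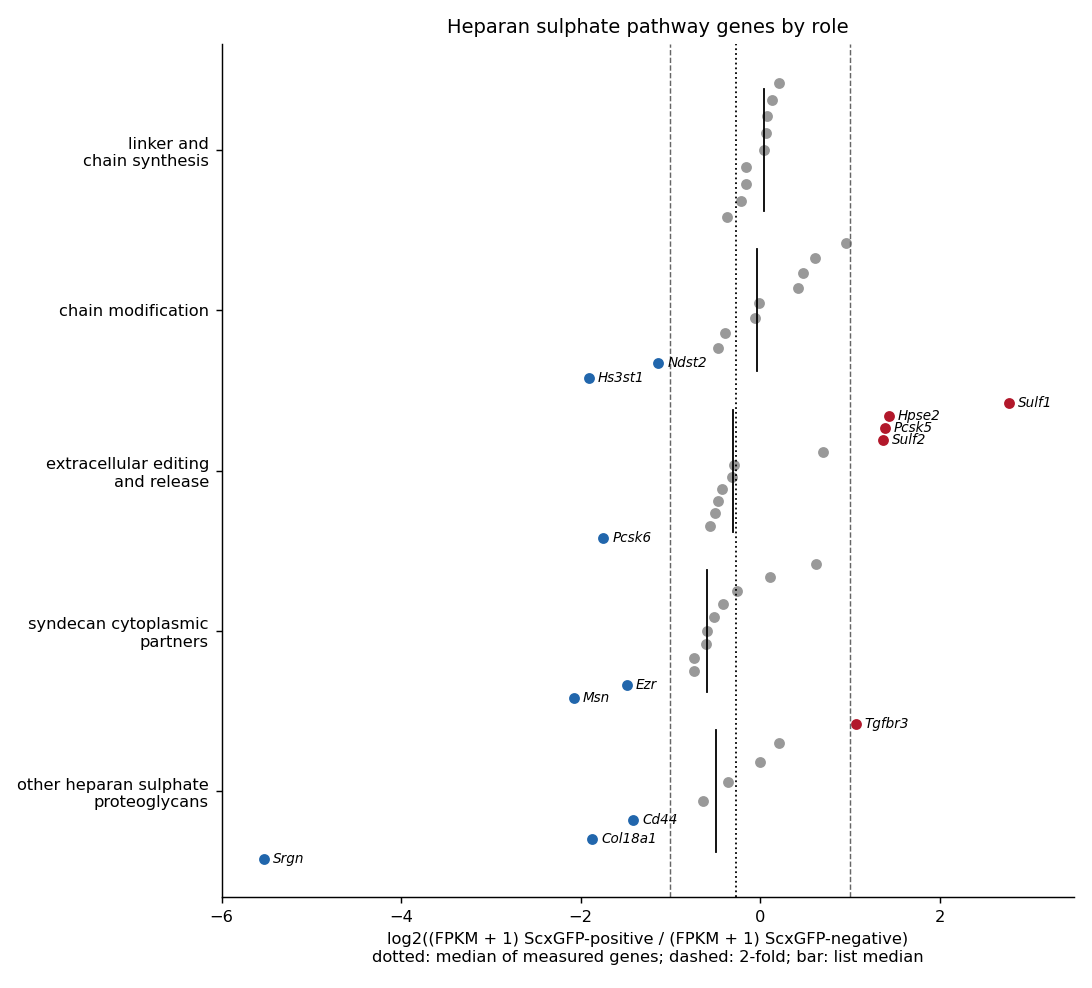
Log2 ratio of the 50 measured heparan sulphate pathway genes in 5 lists by role, 1 point per gene, with named points at least 2-fold higher (red) or lower (blue) in ScxGFP-positive cells. *Sulf1* at 2.77 is the highest point and *Srgn* at −5.52 the lowest, and the chain synthesis genes lie between −0.37 and 0.21.

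As a check of the sort, *Scx* had 134 FPKM in the positive pool and 1.69 FPKM in the negative pool. Of 7 tendon markers 6 were at least 2-fold higher, with sums of 469 FPKM in the positive pool and 53.5 FPKM in the negative pool. Skeletal muscle markers were higher as well, with 6 of 6 at least 2-fold higher. They summed to 147 FPKM in the positive pool and 18.6 FPKM in the negative pool. The part of muscle cells in the glypican levels was not tested. Nor was the part of the epidermal, leukocyte, endothelial and erythroid cells, whose summed markers were lower in the positive pool. Erythroid markers summed to 155 FPKM in the positive pool and 6413 FPKM in the negative pool, with 5 of 5 lower. Markers of distal limb mesenchyme summed to 61.6 FPKM in the positive pool and 95.4 FPKM in the negative pool, with 3 of 4 lower. *Hoxd13*, the marker that was not lower, had 52.4 FPKM in the positive pool, most of that sum, and 33.3 FPKM in the negative pool. Sequence on listed transcripts amounted to 0.687 gigabases for ScxGFP-positive and 0.875 gigabases for ScxGFP-negative cells. All 11 transcript rows of the 10 members had status OK in both libraries.

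**Figure D5:**
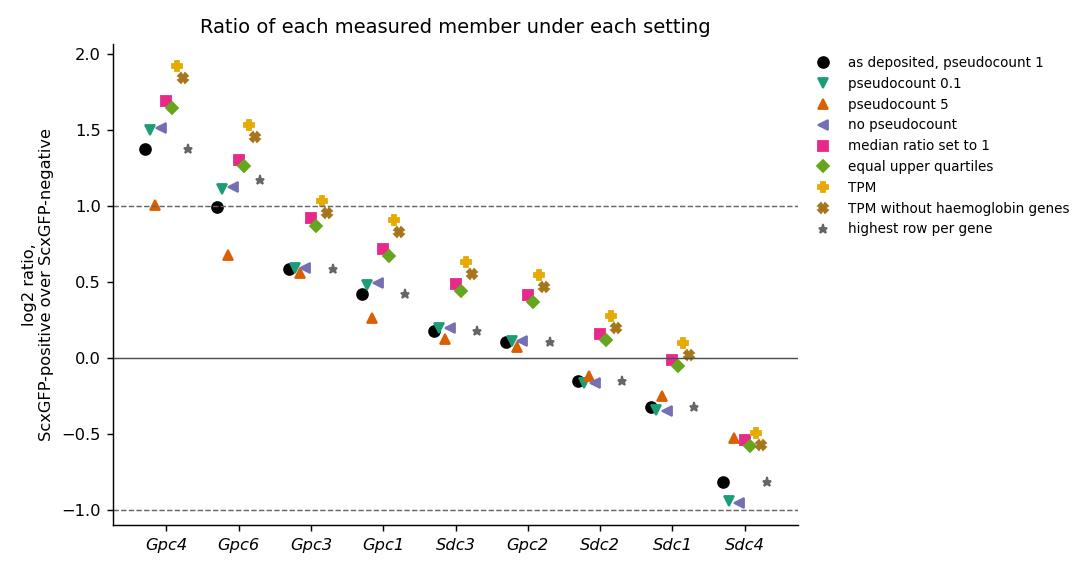
Log2 ratio of the 9 measured members as deposited with a pseudocount of 1 (black) and under 8 other scalings, pseudocounts or transcript choices. *Gpc4* stays above the upper dashed 2-fold line, *Gpc6* lies on both sides of it, and *Sdc1* and *Sdc2* lie on both sides of 0.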

How the data were processed

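RNA of ScxGFP-positive and ScxGFP-negative cells was sequenced as 1 library each. Per the labels' protocols, cDNA came from the NuGEN Ovation kit for total RNA, whose chemistry does not mark strand. Per the submitters' processing notes, Bowtie 0.12.7, TopHat 1.4.1 and mouse build mm9 were used. Per the file headers, the deposited tables give, for RefSeq transcripts, length, coverage (estimated depth of aligned bases), FPKM and status, in the form Cufflinks writes, with no version stated. FPKM was summed per symbol over 28107 rows per file, and symbols with a failed row were missing. File starts count from 0, so 1 was added. Aligned bases are the deposited coverage signal times length. Coverage over FPKM had a median over transcripts of 2.28 for ScxGFP-positive and 2.39 for ScxGFP-negative cells, which corresponds to about that many gigabases mapped. FPKM did not give whole reads, so no count test or interval was computed.

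The log2 ratio used a pseudocount of 1, a minimum of 1 FPKM in either library and a 2-fold mark, computed with Python 3.11.15 and pandas 2.3.3. The calculation returned known fold changes put into the negative library without noise. That checks the arithmetic only and does not address variation between libraries. Groups came from the labels' cell population. The members and lists were chosen with earlier results of these data known. All members were named, as were up to 6 genes per pathway list past 2-fold, by size, plus the highest of the rest by mean FPKM. No likeness between genes was computed, since 2 libraries give 1 ratio per gene. *Hs3st4* was not analysed here. One marker list is not reported here. Promoters are from RefSeq on GRCm38.p6, where 7 of the 10 members matched and *Gpc1*, *Gpc6* and *Sdc2* did not. No coordinate was moved between builds. Alternatives were other pseudocounts, scalings, filters and 1 transcript per gene.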

Additional observations from a re-analysis of the deposited data

How the results depend on the processing

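With no replicates and no read counts, a value here counts as moved when it shifts by over 1.5 times. The number of members at least 2-fold higher, 1 as reported, was 2 with a pseudocount of 0.1, with no pseudocount (added after seeing the data), with the median ratio set to 1, with equal upper quartiles, with TPM without haemoglobin genes and with the highest transcript per gene; *Gpc6* was the added member in each, at 1.11, 1.13, 1.30, 1.26, 1.45 and 1.17. With TPM it was 3, with *Gpc6* at 1.53 and *Gpc3* at 1.03. The number lower was 0 in every setting, and the median log2 ratio of the members, 0.18, stayed between 0.12 and 0.63. Of all 12096 measured genes 488 were higher and 1207 lower. With a pseudocount of 5 these were 222 and 394, and with no pseudocount 747 and 1858. A minimum of 5 FPKM kept only 6215 genes, and 323 of those kept were higher and 658 lower. The counts at that minimum are thus out of a smaller total and are no sign of smaller differences. TPM gave 1133 higher and TPM without haemoglobin genes 1032. TPM values are larger numbers than FPKM, with a glypican sum of 972 TPM against 157 FPKM in the positive pool. The pseudocount of 1 therefore weighs less with TPM, and the 2 TPM settings change scaling and pseudocount together. Of genes past 2-fold, 28.8% were higher as deposited, 43.3% with the median ratio set to 1, 41.0% with equal upper quartiles and 49.3% with TPM. Those scalings put the median of all genes at −0.00062, −0.039 and 0.10. Pathway genes higher, 5 as reported, were 2 with a pseudocount of 5, 10 with TPM and 9 with TPM without haemoglobin genes. They were 3 with a minimum of 5 FPKM, which leaves out the pathway genes at lower levels. The median of the syndecans turned from −0.24 to 0.073, 0.028, 0.18 and 0.11 under the 4 rescalings, and that of the glypicans stayed between 0.56 and 1.03. Shares within a family moved by less than 1.5 times with 1 transcript per gene. The causes were not tested. No paired analysis was possible because each group has 1 library. *Gpc5* is limited by depth.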
